A study of Mus musculus with 2 samples.

Results

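Lung fibroblasts were the cells that the authors' annotation of a single-cell RNA sequencing experiment names fibroblasts, and they were taken from the deposited table of cells by that name alone. There were 2068 of them among 18397 cells (11.2%), with 877 in the control diet (CD) library and 1191 in the high-fat diet (HFD) library. Both libraries were made from whole lungs of female BALB/c mice that entered the diets at 4 weeks of age and were 20 weeks old at collection, after 16 weeks of feeding. Fat, which came from lard, provided 13% of the energy of CD and 60% of that of HFD. Protein provided 27% and 20%, and carbohydrate 60% and 20%, respectively. Lungs of both diets were perfused, minced, digested with Liberase and DNase and cleared of red blood cells before droplet capture. Each diet was represented by 1 library, and how many mice were pooled in it is not given in the sources used here. Diet, animals, digestion and library therefore cannot be told apart, and every interval given here covers counting error only.

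Fibroblasts are the mesenchymal cells that make and maintain the collagen and elastin scaffold of the lung. In the mouse lung, alveolar fibroblasts lie in the alveolar walls close to surfactant-producing alveolar type 2 (AT2) cells, whereas adventitial fibroblasts form cuffs around vessels and airways. Some alveolar fibroblasts store neutral lipid and are known as lipofibroblasts, which are thought to pass lipid on to AT2 cells for surfactant.

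The size and depth of the whole data set were as follows. The CD library held 8793 cells with 42470977 unique molecular identifiers (UMIs, each standing for 1 captured transcript molecule), and the HFD library held 9604 cells with 50679251 UMIs. Fibroblasts carried 10.1% of the CD UMIs and 11.9% of the HFD UMIs. Single fibroblasts had between 1001 and 32715 UMIs and between 452 and 6221 detected genes. There were 27 cell barcodes that occurred in both libraries, and 4 CD fibroblasts and 2 HFD fibroblasts carried such a barcode.

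The annotation was checked as far as the deposited gene table allows. The fibroblast markers used here were Col1a1 and Col1a2, which encode the chains of type I collagen, and Pdgfra, a receptor for platelet-derived growth factors. Col1a1 (ENSMUSG00000001506) lies at chr11:94936224-94953042 on the plus strand of GRCm38, Col1a2 (ENSMUSG00000029661) at chr6:4504814-4541544 on the plus strand, and Pdgfra (ENSMUSG00000029231) at chr5:75152292-75198215 on the plus strand, each as a protein-coding gene. All 3 carried the authors' flag for highly variable genes, which 1000 of 19278 genes had (5.19%). This flag covers all cells of both diets and gives neither a level in fibroblasts nor a direction, and values of single genes per cell were not analysed here. The name of the cells therefore rests on the authors' annotation.

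Other fibroblast genes carried the flag to different extents. Among further matrix genes it was set for 7 of 10, including Eln, which encodes elastin, and Dcn, which encodes the collagen-binding proteoglycan decorin, but not for Col5a1, Col6a1 or Fbn1. Alveolar fibroblast genes had it in 7 of 8 cases, among them the transcription factor Tcf21 and the matrix protein gene Npnt, with Wnt2 as the exception. For adventitial fibroblast genes the count was 6 of 8, including Pi16 and Dpt, without Cd34 and Igfbp4. Lipid-handling genes were divided, since Lpl (lipoprotein lipase), Apoe (a lipid-carrying apolipoprotein) and Fabp4 (a fatty acid-binding protein) were flagged and Plin2 (a lipid droplet coat protein), Pparg (a regulator of lipid storage) and Dgat1 (an enzyme of triglyceride synthesis) were not. Of the growth factor receptors and ligands, 3 of 10 were flagged, namely Pdgfra, Pdgfrb and Igf1. Genes of neighbouring mesenchyme were flagged as well, with 5 of 6 for myofibroblasts, 6 of 6 for pericytes and 3 of 4 for mesothelium. The lists were chosen as cell type markers or as functional groups with a known part in fibroblasts, so a share far above that of all genes is not a result about fibroblasts.

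The first comparison asked how large a part of each lung library the fibroblasts formed. The 877 CD fibroblasts were 9.97% of their library (exact 95% interval 9.36 to 10.6), and the 1191 HFD fibroblasts were 12.4% of theirs (11.7 to 13.1). The share was 2.43 percentage points higher in HFD, at a ratio of 1.24 (1.14 to 1.36), and the intervals were apart. A minimum of 2000 UMIs lowered it to 1.12 (1.01 to 1.24) and one of 3000 UMIs to 1.06 (0.951 to 1.18), an interval that includes 1. Among the 17 annotated cell types this ratio had rank 4 from the highest, in a range of 0.831 to 1.65. The other mesenchymal types are given for comparison. Myofibroblasts, contractile cells of the alveolar ducts, were 2.29% of CD and 2.54% of HFD cells (ratio 1.11, 0.918 to 1.35). Pericytes, which wrap capillaries, were 3.95% of CD and 3.98% of HFD cells (ratio 1.01, 0.869 to 1.17). Both of these ratios had intervals that included 1, and that of myofibroblasts also included the fibroblast ratio. As a share of the mesenchymal cells alone, fibroblasts had a ratio of 1.07, from 877 of 1425 CD and 1191 of 1817 HFD cells. Its interval of 0.975 to 1.16 treats fibroblasts and that total as independent counts, although fibroblasts are most of the total. The interval is therefore too wide, and one suited to a part of its own total was not computed. No conclusion is drawn from it on whether fibroblasts differed from the other mesenchyme.

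The authors had divided fibroblasts into 5 fine clusters, numbered 8, 12, 22, 26 and 38. Clusters 8, 12 and 26 held most fibroblasts and had many UMIs per cell, with medians over both libraries of 4262, 6587 and 6218. In clusters 22 and 38 the medians were 1318 and 1340 UMIs. The names "deep" for clusters 8, 12 and 26 and "shallow" for clusters 22 and 38 are used here for these medians and were given after the values had been seen. Median numbers of detected genes followed the same order of groups, at 1866, 2357.5 and 2328 genes in clusters 8, 12 and 26, compared to 713.5 in cluster 22 and 737 in cluster 38. The median mitochondrial percent, the part of a cell's UMIs that came from protein-coding genes of the mitochondrial genome, was 2.86% in cluster 12, 2.84% in cluster 26, 3.46% in cluster 8, 4.38% in cluster 22 and 7.71% in cluster 38. Few UMIs and a high mitochondrial percent thus occurred together in clusters 22 and 38.

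The make-up of the fibroblasts differed between the libraries. Cluster 8 was the largest in both, with 310 of 877 CD fibroblasts (35.3%, 32.2 to 38.6) and 406 of 1191 HFD fibroblasts (34.1%, 31.4 to 36.9), a ratio of 0.964 (0.830 to 1.12). Cluster 26 had the same share in both, with 141 CD cells (16.1%, 13.7 to 18.7) and 192 HFD cells (16.1%, 14.1 to 18.3), a ratio of 1.00 (0.803 to 1.26). These clusters showed no difference beyond counting error. Cluster 12 made up 33.3% of CD fibroblasts (292 cells, 30.2 to 36.5) and 23.8% of HFD fibroblasts (284 cells, 21.5 to 26.4), a ratio of 0.716 (0.606 to 0.846). Cluster 22 made up 13.6% of CD fibroblasts (119 cells, 11.4 to 16.0) and 20.7% of HFD fibroblasts (247 cells, 18.5 to 23.2), a ratio of 1.53 (1.22 to 1.92). Cluster 38 was small, with 15 CD cells (1.71%, 0.960 to 2.81) and 62 HFD cells (5.21%, 4.01 to 6.62), a ratio of 3.04 (1.71 to 5.76). Cluster 12 was therefore lower in HFD and clusters 22 and 38 were higher, and for these 3 of 5 clusters the CD and HFD intervals were apart. Among cells with at least 2000 UMIs, cluster 38 had a ratio of 2.24 (0.664 to 9.64), which includes 1, and with at least 3000 it had 1.64 on 1 CD and 2 HFD cells. Cluster 22 had 2.21 (1.17 to 4.42) and 3.27 under these limits, the latter on 4 CD and 16 HFD cells. Without such limits, intervals were apart for 27.8% of the 36 fine clusters that belong to cell types with more than 1 cluster.

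**Figure D1:**
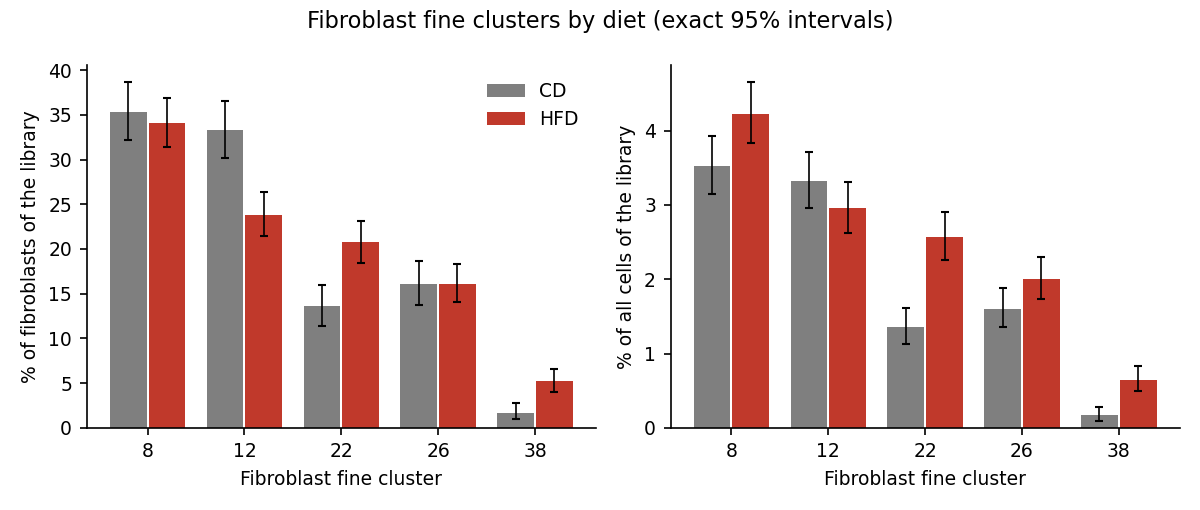
Bars give each fibroblast fine cluster as a percent of the fibroblasts of its library (left) and as a percent of all cells of its library (right), for CD and HFD, with exact 95% intervals from 1 library per diet. Cluster 12 stands lower in HFD on the left, at 23.8% compared to 33.3%, and clusters 22 and 38 stand higher in HFD in both panels.

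Measured against all cells of the library instead, clusters 22 and 38 were the fibroblast clusters whose intervals did not overlap (2 of 5, compared to 25.5% of all 51 fine clusters), and the same clusters had a ratio of at least 1.5 (2 of 5, compared to 11.8%). Cluster 12 was 3.32% of CD cells and 2.96% of HFD cells, and its ratio of 0.890 (0.754 to 1.05) had an interval that included 1. Its lower share of the fibroblasts was thus accompanied by nearly equal cell numbers, 292 and 284. Clusters 8 and 26 had ratios of 1.20 (1.03 to 1.39) and 1.25 (0.998 to 1.56), with overlapping intervals of the libraries. HFD cells made up 67.5% of cluster 22 (62.4 to 72.3) and 80.5% of cluster 38 (69.9 to 88.7), compared to 52.2% of all cells.

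Most of the difference in the fibroblast share came from the shallow clusters. Together, clusters 22 and 38 held 134 CD and 309 HFD cells, which was 15.3% (13.0 to 17.8) and 25.9% (23.5 to 28.5) of the fibroblasts and 1.52% and 3.22% of all cells, a ratio of the latter of 2.11 (1.72 to 2.61). Of the 2.43 percentage points by which the HFD share was higher, they contributed 1.69 points (69.8%). The deep clusters contributed 0.734 points (30.2%), the sum of higher shares of clusters 8 and 26 and a lower share of cluster 12. Deep fibroblasts formed 8.45% of the CD library (7.88 to 9.05) and 9.18% of the HFD library (8.61 to 9.78), and the ratio of 1.09 had an interval of 0.985 to 1.20. The fibroblast share was therefore higher in HFD beyond counting error with all 5 clusters, whereas for the 3 deep clusters alone the intervals of the libraries overlapped. Depth and mitochondrial percent moved with this result, and their part in it was not tested.

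The number of UMIs per cell was compared next. The median CD fibroblast had 4585 UMIs (4274 to 4764) and the median HFD fibroblast 4313 UMIs (4057 to 4555), a ratio of 0.941 with overlapping intervals. Within every cluster, however, the HFD median was the higher one. In cluster 8 the CD median was 4082 UMIs (3872 to 4387) and the HFD median 4434 (4136 to 4751), a ratio of 1.09. Cluster 12 had 6307.5 UMIs per CD cell (5814 to 6660) and 7127 per HFD cell (6503 to 7702), a ratio of 1.13. For cluster 26 the medians were 5835 (4732 to 6385) and 6546.5 (5718 to 7276), a ratio of 1.12. The shallow clusters had 1310 and 1327 UMIs in cluster 22 and 1339 and 1346.5 in cluster 38, both at a ratio of 1.01. These medians lie close above the lowest deposited count of 1000 UMIs, which bounds how far they could differ, so no equality of depth is read from them. With these included, HFD was higher in 5 of 5 clusters, as in 77.6% of the 49 fine clusters compared, and in 0 of 5 did the intervals fail to overlap, compared to 20.4% of fine clusters with HFD higher and intervals apart.

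The direction of the pooled median and that within clusters thus differed. When the clusters were weighted to 1 common make-up, the ratio of geometric mean UMIs was 1.10, and in the deep clusters together the CD median was 5040 UMIs (4838 to 5309) and the HFD median 5638 (5327 to 5949), a ratio of 1.12 with intervals apart. Cells other than fibroblasts had medians of 3269 and 3527 UMIs, a ratio of 1.08, and pericytes a ratio of 1.07. In myofibroblasts the ratio was 1.24, from 4386 to 5423.5 UMIs. Deep fibroblasts thus had more UMIs in HFD by a ratio within the range of these other cells, and the pooled fibroblast ratio ranked 16 of 17 cell types from the highest.

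**Figure D2:**
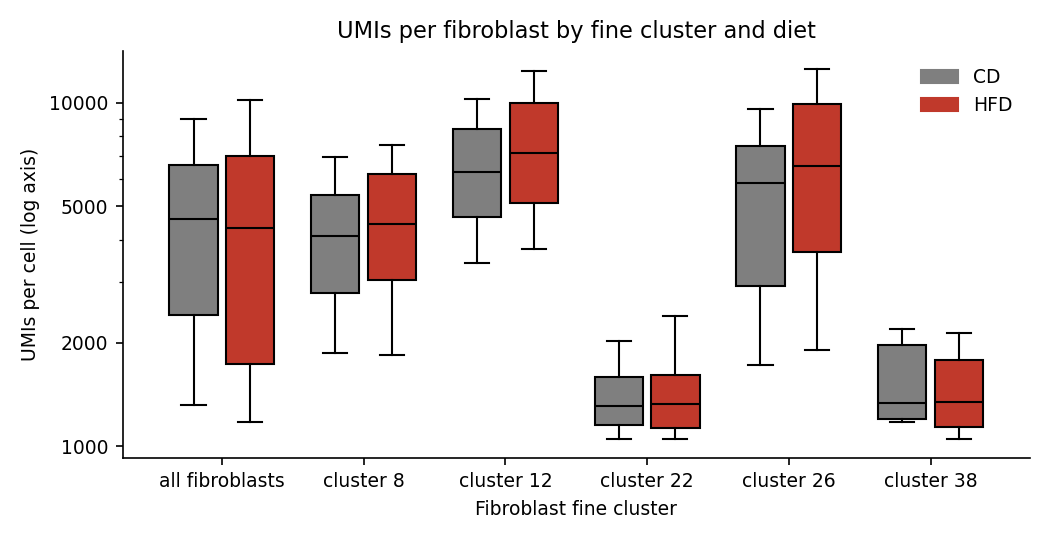
Boxes give UMIs per cell on a log axis for all fibroblasts and for each fine cluster in CD and HFD, with the median as a line, the quartiles as the box and the 10th and 90th percentiles as whiskers. The median of all fibroblasts is lower in HFD (4313) than in CD (4585), whereas each of the 5 clusters has its higher median in HFD.

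The spread of UMIs over fibroblasts was wider in HFD. The interquartile range of log2 UMIs was 1.45 in CD and 2.01 in HFD fibroblasts, compared to 1.32 and 1.41 in all other cells, 1.20 and 1.36 in myofibroblasts and 0.84 and 0.94 in pericytes. Within the deep clusters it was 1.00 in CD and 1.13 in HFD. Over both libraries together, fibroblasts had rank 2 from the widest range among the 17 cell types, at 1.79.

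Both ends of the range held more HFD fibroblasts. Between 1000 and 1500 UMIs lay 118 CD fibroblasts (13.5%, 11.3 to 15.9) and 250 HFD fibroblasts (21.0%, 18.7 to 23.4), a ratio of 1.56 (1.25 to 1.96). Of these, the shallow clusters held 88 in CD and 206 in HFD. At 9000 UMIs or more lay 88 CD fibroblasts (10.0%, 8.13 to 12.2) and 173 HFD fibroblasts (14.5%, 12.6 to 16.7), a ratio of 1.45 (1.11 to 1.89). The middle of the range held fewer, with 24.9% of CD fibroblasts and 18.9% of HFD fibroblasts between 4000 and 6000 UMIs and intervals apart.

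The clusters took different parts in this. At the upper end, the share of cluster 12 with 9000 UMIs or more was 20.5% in CD (60 cells, 16.1 to 25.6) and 32.0% in HFD (91 cells, 26.7 to 37.8). In cluster 26 it was 15.6% (22 cells, 10.0 to 22.7) and 30.7% (59 cells, 24.3 to 37.8). In both clusters the intervals did not overlap, whereas cluster 8 held only 6 CD and 18 HFD cells at this depth and cluster 22 held 5 HFD cells and no CD cell. At the lower end, 30 deep fibroblasts of CD (4.04%, 2.74 to 5.71) and 44 of HFD (4.99%, 3.65 to 6.64) had fewer than 1500 UMIs, a ratio of 1.24 (0.759 to 2.04). Cluster 8 held 14 of these in CD (4.52% of its cells) and 31 in HFD (7.64%), a ratio of 1.69 (0.873 to 3.44). Under the wider limit of 2000 UMIs the deep fibroblasts had shares of 9.15% and 9.07%. Intervals overlapped in each of these cases. Most fibroblasts under 1500 UMIs lay in clusters 22 and 38. These clusters were named for their low medians, so this placement is not a finding. At the high end, clusters 12 and 26 held larger shares of cells with 9000 UMIs or more in HFD. How many of all fine clusters did so with intervals apart was not counted.

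All other cells pooled had nearly equal shares in the lowest window and lower shares in HFD between 1500 and 3000 UMIs, but single cell types differed. Between 1000 and 1500 UMIs lay 10.1% of the other CD cells and 10.4% of the other HFD cells, a ratio of 1.03 (0.933 to 1.13). Between 1500 and 2000 UMIs the ratio was 0.819 and between 2000 and 3000 UMIs it was 0.892, both with intervals apart, so that under 2000 UMIs lay 21.2% of the other CD cells and 19.5% of the other HFD cells (ratio 0.919, 0.858 to 0.984). At 9000 UMIs or more the shares were 12.7% and 15.2%, a ratio of 1.20 (1.10 to 1.30). Myofibroblasts had 4.98% and 3.28% of their cells under 1500 UMIs, and pericytes 10.7% and 9.69%, with intervals that overlapped in each case. Endothelial cells were shallower at the low end in HFD, with a lower quartile of 1896 UMIs in CD and 1693.5 in HFD. AT1 cells, the flat cells of the alveolar surface, had lower quartiles of 1764 and 1553.5 UMIs. In fibroblasts the lower quartiles were 2407 and 1736.5 UMIs, so that the direction at the low end was shared with these types. With 1 library per diet, whether fibroblasts differ from the other cells in this respect was not tested.

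**Figure D3:**
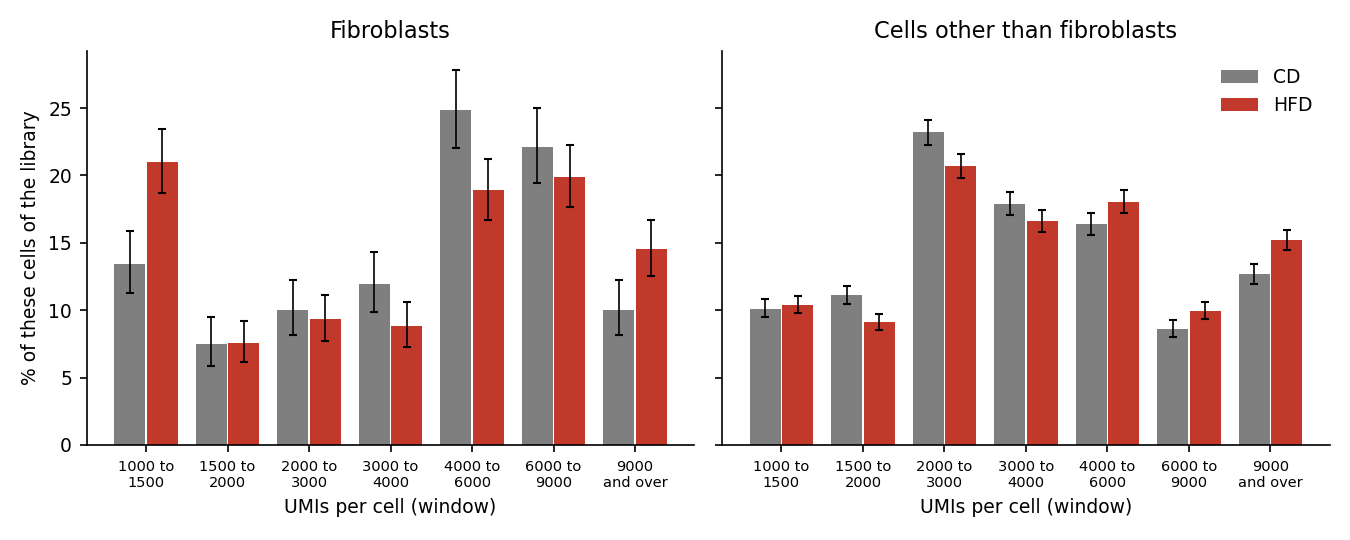
Bars give the percent of fibroblasts (left) and of all other cells (right) of each library that fell in each of 7 windows of UMIs per cell, with exact 95% intervals. HFD fibroblasts stand above CD fibroblasts in the lowest window (21.0% compared to 13.5%) and in the highest (14.5% compared to 10.0%), whereas for other cells the lowest window is nearly equal, at 10.4% and 10.1%.

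Detected genes per cell followed the UMIs. The median was 1892 genes in CD fibroblasts and 1822 in HFD fibroblasts, a ratio of 0.963 with overlapping intervals. In every cluster HFD had the higher median, from 1786.5 to 1909 genes in cluster 8, 2260.5 to 2473 in cluster 12, 711 to 717 in cluster 22, 2186 to 2439.5 in cluster 26 and 681 to 740 in cluster 38. This was 5 of 5 clusters, compared to 83.7% of fine clusters, and none of the 5 had intervals apart, compared to 24.5% of fine clusters with HFD higher. Deep fibroblasts together had 2046 genes in the median CD cell (1963 to 2114) and 2192.5 in the median HFD cell (2141 to 2268), a ratio of 1.07 with intervals apart. Since the number of genes depends on UMIs, it was also compared within the UMI windows, where HFD was higher in 4 of 7 and the ratios lay between 0.987 and 1.08. The intervals failed to overlap only at 9000 UMIs or more, where CD fibroblasts had 3222 genes (3170 to 3279) and HFD fibroblasts 3474 (3374 to 3570). That window has no upper bound, and its median UMIs also differed, with 10252.5 for CD (9764 to 10485) and 11313 for HFD (10735 to 11775). Other cells in this window had a ratio of 1.08 in median UMIs with intervals apart. Their ratio in median genes was 1.01 with overlapping intervals. The part of depth in the gene difference was not tested.

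The mitochondrial percent was higher in HFD fibroblasts. The median CD fibroblast had 3.03% (2.89 to 3.13) and the median HFD fibroblast 3.41% (3.28 to 3.50), a ratio of 1.13 with intervals apart. Cluster 22 had 3.86% for CD (3.12 to 4.20) and 4.83% for HFD (4.29 to 5.17), a ratio of 1.25 with intervals apart. In the other clusters the intervals overlapped, at 3.44% and 3.46% in cluster 8, 2.71% and 2.98% in cluster 12, 2.76% and 3.01% in cluster 26, and 7.67% and 7.85% in cluster 38. HFD was the higher library in 5 of 5 clusters, as in 77.6% of fine clusters, and had intervals apart in 1 of 5, compared to 8.16% of fine clusters. Deep fibroblasts together had medians of 2.93% and 3.18%, a ratio of 1.08 with intervals apart. A higher mitochondrial percent in HFD was thus also measured in the deep clusters alone.

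Other cells moved in the same direction. Their median was 3.31% in CD and 3.50% in HFD, pericytes had a ratio of 1.11 with intervals apart, and myofibroblasts one of 1.14 with overlapping intervals. Of the 17 cell types, 13 had the higher median in HFD, and fibroblasts had rank 6 from the highest ratio. Within the UMI windows, HFD fibroblasts had the higher median in 7 of 7, with ratios between 1.06 and 1.29. Between 1000 and 1500 UMIs CD had 3.87% (3.13 to 4.12) and HFD 5.0% (4.47 to 5.50), and between 6000 and 9000 UMIs they were 2.71% (2.55 to 2.94) and 3.18% (3.02 to 3.30). In these windows the intervals did not overlap, and in the others they did. Other cells had the higher median in HFD in 6 of 7 windows, with ratios from 0.991 to 1.43 and intervals apart in 2, the lowest (ratio 1.43) and the highest (1.07). Deep fibroblasts did so in 5 of 7, with ratios from 0.935 to 1.17 and intervals apart in 1.

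**Figure D4:**
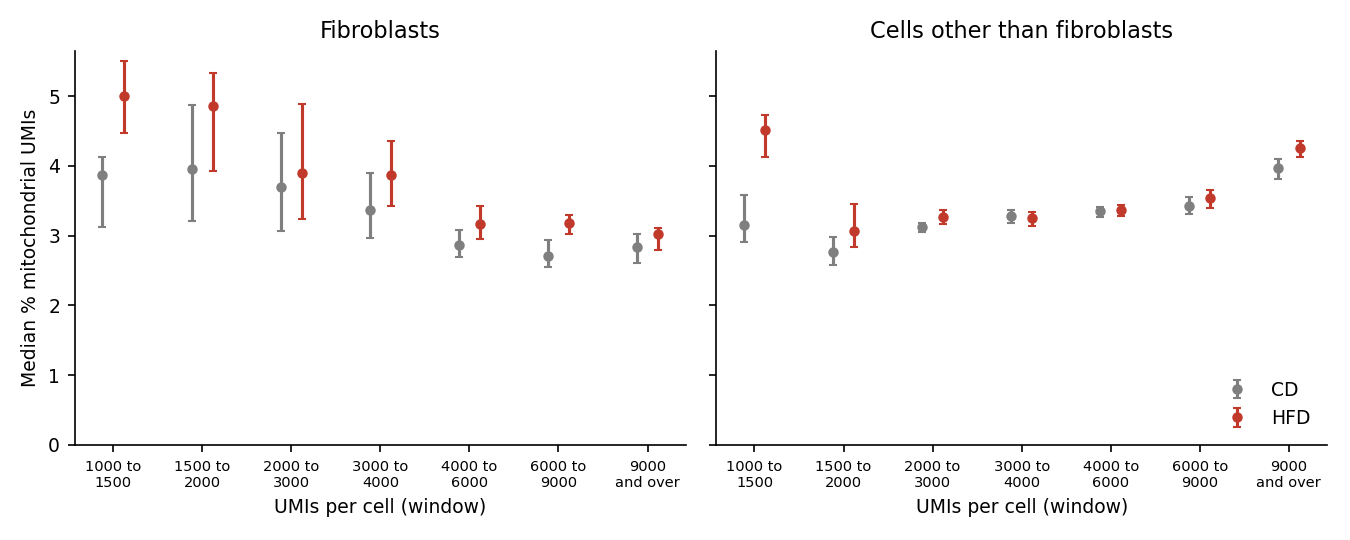
Points give the median mitochondrial percent of fibroblasts (left) and of all other cells (right) in each window of UMIs per cell, for CD and HFD, with order-statistic 95% intervals over cells. HFD fibroblasts lie above CD fibroblasts in 7 of 7 windows, with intervals apart in 2, and other cells do so in 6 of 7, also with intervals apart in 2.

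The shallow clusters held many of the fibroblasts with a high mitochondrial percent. Above 10% lay 24 CD fibroblasts (2.74%, 1.76 to 4.04) and 56 HFD fibroblasts (4.70%, 3.57 to 6.06), a ratio of 1.72 (1.05 to 2.90) with overlapping intervals of the shares. All other cells had a ratio of 1.66 (1.38 to 1.98), from shares of 2.46% and 4.08%. Of the fibroblasts above 10%, clusters 22 and 38 held 12 in CD and 38 in HFD. In cluster 38, 6 of 15 cells from CD (40.0%, 16.3 to 67.7) and 19 of 62 from HFD (30.6%, 19.6 to 43.7) were above this level, so that such cells were common in it in both diets. Cluster 22 also held cells at the other extreme, since 26 of 119 from CD (21.8%, 14.8 to 30.4) and 33 of 247 from HFD (13.4%, 9.38 to 18.2) were under 1%. In cluster 26 cells under 1% were 14.9% of CD and 13.0% of HFD cells, whereas in cluster 8 they were 2.58% and 3.45%. Clusters 22 and 38, both with median UMIs close above the lowest deposited count, thus had unlike distributions of mitochondrial percent.

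In the plane in which the authors clustered the cells, a uniform manifold approximation and projection (UMAP), fibroblasts formed a group of their own. The fine clusters were made in this plane, so that they lie apart is not a finding. All 15 nearest cells of every fibroblast were fibroblasts. The nearest cells were likewise all of the same type in every other annotated type except dendritic cells (99.5%). The smallest distance from a fibroblast to a cell of another type was 0.165, to a dendritic cell. The plane was 1.82 by 2.05 units, and fibroblasts spanned 0.280 by 0.286 of it. Cluster 12 lay at one end and cluster 38 at the other, with their centres 0.228 apart, the largest such distance. Cluster 22 lay between cluster 8 (0.0941) and cluster 38 (0.0759), and cluster 26 was closest to cluster 12 (0.125). Shallow cluster 22 thus adjoined deep cluster 8, and cluster 38 bordered cluster 22 alone. Cluster 38 was the most compact, with a median distance of its cells from the centre of 0.0108, compared to 0.0467 in cluster 12.

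**Figure D5:**
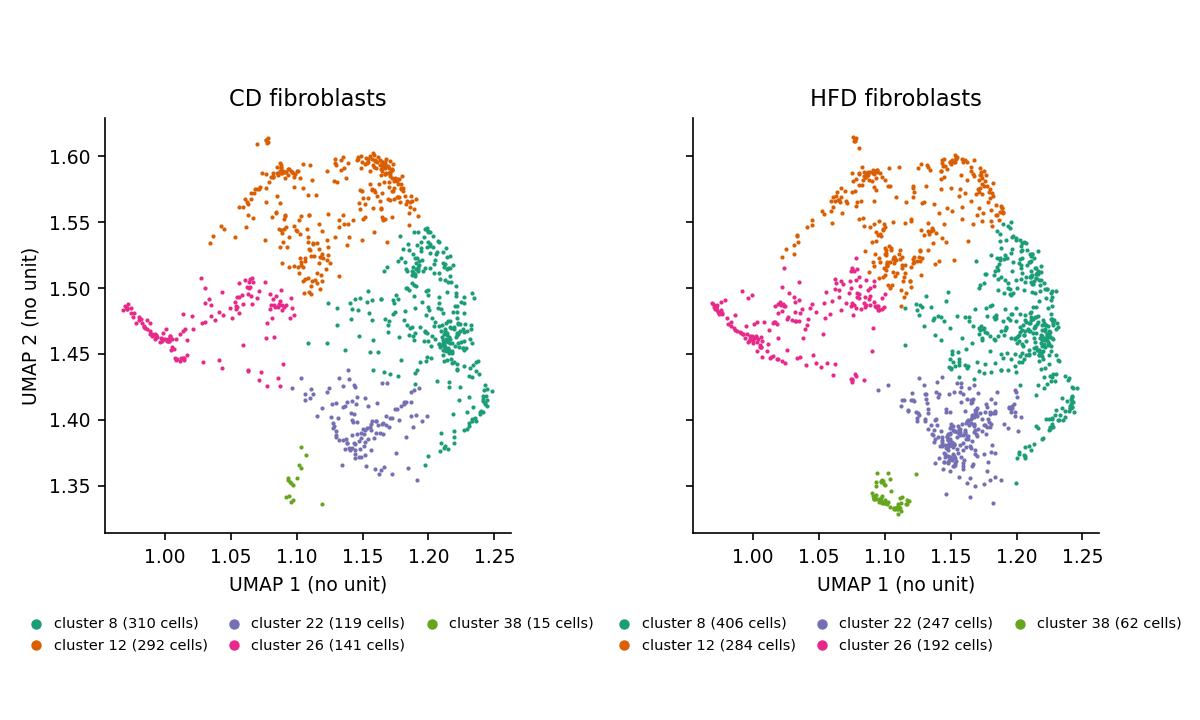
Each point is 1 fibroblast in the authors' UMAP plane (axes without unit), coloured by fine cluster, with CD cells on the left (877) and HFD cells on the right (1191). Both diets fill the same 5 areas, and clusters 22 and 38 at the lower side hold more HFD cells (247 and 62) than CD cells (119 and 15).

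The mixing of the diets within clusters was described by the neighbours of each cell. Since the clusters differ in their share of HFD cells, the HFD percent of the 15 nearest cells is given within each cluster, beside that of the cluster. Cluster 8 was 56.7% HFD, with 56.7% around its CD cells and 58.4% around its HFD cells. Cluster 12 was 49.3% HFD, with 47.4% and 51.6%, and cluster 26 was 57.7% HFD, with 54.8% and 58.1%. Cluster 22 was 67.5% HFD, with 67.1% and 70.3%. Cluster 38 was 80.5% HFD and had the widest gap, with 70.7% around its 15 CD cells and 84.8% around its 62 HFD cells. The median positions of the diets lay farthest apart in clusters 12 (0.0164) and 38 (0.0147) and nearest in cluster 8 (0.00160). These shifts have no interval, and that of cluster 38 rests on 15 CD cells.

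Few cells lay at a border between clusters. A cell of another cluster was among the 15 nearest for 125 of 2068 fibroblasts. In cluster 8 the 41 border cells had a median of 2008 UMIs (1596 to 3277), compared to 4378 (4116 to 4574) in the 675 cells inside. Border cells of cluster 12 had 7043 UMIs compared to 6561.5 inside, and those of cluster 26 had 6631 compared to 6193, with overlapping intervals. Cluster 22 ran the other way, with 1529 UMIs (1298 to 1792) in 31 border cells and 1308 (1245 to 1362) in the 335 inside, and its intervals also overlapped. Cluster 38 had only 2 border cells, with a median of 1465 UMIs compared to 1340 inside. Cluster 8 was thus the cluster whose border and inside differed beyond counting error, with the border shallower.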

How the data were processed

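Lungs of CD and HFD mice gave 1 droplet library each. Per the submitters' processing notes, Cell Ranger, Seurat 4.1.0 and the GRCm38.p6 (mm10) assembly were used; per the methods both libraries were clustered together. The labels name a 3' kit and the methods a 5' kit. Each deposited cell carries counts of UMIs and of detected genes as the authors computed them, not normalised, the deposited percent of mitochondrial UMIs, and UMAP coordinates, which the authors deposited as a score without unit. Fine clusters and cell types are the authors' own. The lowest deposited count was 1000 UMIs, above the limit the methods state, and no doublet removal is stated. Doublets were addressed only by leaving out the 1% of cells with the most UMIs, and cells were not thinned to 1 depth, because values of single genes were not analysed here.

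Shares were given exact (Clopper-Pearson) 95% intervals, ratios of shares conditional exact intervals and medians order-statistic intervals. The conditional intervals treat each count as independent of its total, so they are too wide where a share is large. With no replicate there is no test and no p-value. Libraries were called apart where their intervals did not overlap. Comparisons of medians used the 49 of 51 fine clusters with enough cells in both libraries for an interval. All 5 fibroblast clusters were to be named, with myofibroblasts and pericytes as comparison and genes by flag only. The members, lists and UMI windows were chosen with earlier results of these data known. Alternatives were limits on UMIs, genes and mitochondrial percent, other denominators, and each cluster left out. Coverage of the intervals was tested on simulated library shares of the fibroblast clusters and on simulated medians. Only a minimum coverage was required, so intervals that are too wide would pass. Shares of the fibroblasts and of the mesenchyme were not simulated. Gene positions came from GENCODE M21 (GRCm38), in which 19268 of 19278 gene identifiers were found. Tables were handled in Python 3.11.15 (pandas 2.3.3, numpy 2.4.6), intervals computed with scipy 1.17.1 and figures drawn with matplotlib 3.10.9.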

Additional observations from a re-analysis of the deposited data

How the results depend on the processing

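No paired analysis was possible because CD and HFD comprised a single library each. Of 76 alternatives, 60 stayed within the interval of the value reported (within 1.5 times for the neighbour mix, which has none) and 16 moved. Ratios that turned from below to above 1 were those of median UMIs, median genes and cluster 8, each with an interval that included 1 as reported. The ratio of fibroblast shares (1.24) was above 1 in all 18 of its alternatives, and its interval excluded 1 in 16. Among those that did not exclude 1 is the mesenchymal total, whose interval is too wide because fibroblasts are most of that total. That its interval includes 1 is therefore not read as a result. The share ratio was 1.12 (1.01 to 1.24) among cells with at least 2000 UMIs and 1.06 (0.951 to 1.18) with at least 3000. Among mesenchymal cells it was 1.07 (0.975 to 1.16, too wide an interval). It was 1.41 without cluster 12 and 1.11 (1.002 to 1.22) without clusters 22 and 38. The last removes their cells from the total too; with all cells as the total the same clusters had 1.09 (0.985 to 1.20), so the call depends on the denominator. As shares of the library, clusters 8 and 12 had ratios of 1.20 (1.03 to 1.39) and 0.890. Cluster 22 had 2.21 with at least 2000 UMIs and 3.27 with at least 3000 (4 and 16 cells), and cluster 38 had 2.24 (0.664 to 9.64) with at least 2000 and 1.64 with at least 3000 (1 and 2 cells), where its interval included 1. The ratio of median UMIs, 0.941 with all fibroblasts, was 1.11 with at least 2000 UMIs, 1.09 (1.01 to 1.18) with at least 3000, 1.10 with 1 common make-up and 1.12 (1.00 to 1.23) without clusters 22 and 38. The ratio of median genes (0.963) was 1.07 with either minimum. The mitochondrial ratio stayed between 1.08 and 1.18. Leaving out clusters 22 and 38 together, leaving out shared barcodes (share ratio 1.25) and dividing HFD UMIs by the ratio of library medians (share ratio 1.21, cluster 22 1.36, cluster 38 2.68) were chosen after seeing the data. After this division, HFD cells that fell under 1000 UMIs were left out. It thus removed HFD cells only, and kept 95.3% of HFD fibroblasts and 100% of CD fibroblasts. The cause of these movements was not tested. Cluster 38 rests on 15 CD cells, and depth limits what can be said of its make-up.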

Other observations

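Of the 51 fine clusters, 4 had a median under 2000 UMIs over both libraries, and 2 of them were the fibroblast clusters 22 and 38. The others were cluster 1 of endothelial cells, with a median of 1519 UMIs, and cluster 9 of neutrophils, with 1825.5 UMIs. Endothelial cluster 1 was 4.66% of CD cells and 6.04% of HFD cells, a ratio of 1.30 (1.14 to 1.47), whereas neutrophil cluster 9 was 3.97% and 3.78%, a ratio of 0.952 (0.820 to 1.11). Of these 4 clusters, 3 thus had a ratio above 1, and the interval of cluster 9 included 1. Whether depth had a part in these ratios was not tested.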
